A study of Homo sapiens with 12 samples.

Results

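PBK and 9 kinases of mitosis (CDK1, AURKA, AURKB, PLK1, NEK2, BUB1, BUB1B, TTK and MELK) were followed in C4-2 prostate cancer cells in which PBK was inhibited. The members were chosen by symbol and matched to Ensembl gene identifiers, giving 10 genes of the 54127 counted, and all 10 passed the filter on low counts that 14505 genes passed. In the PBKi libraries all 10 transcripts were lower than in the DMSO libraries, by 15.9% for PLK1 to 33.1% for TTK, with a median log2 fold change of -0.40. Over all genes tested the median log2 fold change was -0.01.

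C4-2 is a castration-resistant line that descends from LNCaP, and every library came from this line grown in RPMI medium with 10% FBS. The control group received DMSO, the vehicle (6 libraries), and the PBKi group received the PBK inhibitor HI-TOPK-032 (6 libraries) at 1 µM. The study's methods give a treatment of 6 h. Polyadenylated RNA was sequenced as single reads of 40 bases, and reads were counted per gene. The design holds 1 line, 1 compound, 1 dose and 1 time, and the sources used here do not state whether the 6 libraries of a group were separate cultures, so the p-values measure the spread between these libraries, which may be technical. The inhibitor acts on the protein, so the PBK transcript is no check of whether the kinase was inhibited.

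Entry into mitosis is driven by CDK1 with its cyclins, while the Aurora and Polo-like kinases build the spindle and BUB1, BUB1B and TTK hold back chromosome separation until every kinetochore is attached. PBK, also called TOPK, is a mitogen-activated protein kinase kinase-like enzyme that is itself phosphorylated by CDK1 with cyclin B in mitosis. The genes of this group are transcribed mainly in G2 and M phase, and many are controlled through promoter elements called the cell cycle genes homology region (CHR) and the CCAAT box. In bulk RNA, fewer cells in G2 or M phase and less of these transcripts per cell cannot be told apart.

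Promoters are shown because the members moved together and because these elements are known from genes of G2 and M phase. RefSeq promoters of build GRCh38.p14, covering 250 bases before to 50 bases after the start, were at hand for 7 of the 10 members, and PBK, AURKA and TTK had no entry. The search was for TTTGAA or TTCGAA (CHR letters) and for CCAAT, on both strands. The 120 bases before the start are printed 5′ to 3′ for the 5 members with a match near the start, and capitals mark CHR letters (TTTGAA) and the CCAAT box (CCAAT or, on the other strand, ATTGG).
PLK1, chr16:23678769-23678888, plus strand: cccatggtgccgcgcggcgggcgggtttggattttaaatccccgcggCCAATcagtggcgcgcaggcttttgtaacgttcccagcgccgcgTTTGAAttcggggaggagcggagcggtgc
BUB1B, chr15:40160949-40161068, plus strand: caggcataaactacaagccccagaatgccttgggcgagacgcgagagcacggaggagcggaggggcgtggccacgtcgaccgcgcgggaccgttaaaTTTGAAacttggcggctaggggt
CDK1, chr10:60778358-60778477, plus strand: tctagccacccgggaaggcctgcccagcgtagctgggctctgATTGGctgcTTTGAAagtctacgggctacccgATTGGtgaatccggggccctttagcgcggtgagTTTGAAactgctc
BUB1, chr2:110678064-110678183, minus strand: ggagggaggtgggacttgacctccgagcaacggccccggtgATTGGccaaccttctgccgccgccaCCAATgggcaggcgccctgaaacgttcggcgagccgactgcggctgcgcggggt
NEK2, chr1:211675622-211675741, minus strand: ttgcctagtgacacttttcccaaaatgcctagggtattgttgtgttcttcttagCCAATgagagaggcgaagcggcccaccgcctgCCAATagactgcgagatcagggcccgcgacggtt

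The CHR letters begin 29 bases before the start in PLK1 and 23 bases before it in BUB1B. CDK1 holds them 69 and 13 bases before the start shown, which is the downstream one of its pair of annotated starts, and BUB1 holds TTCGAA only past the start. In all, 4 of the 7 members (57.14%) held CHR letters in the whole window, against 19.54% of 27305 genes with a promoter, and 5 of 7 (71.43%) held CCAAT, against 39.72% of those genes. Both motifs stood in 3 of 7 members (42.86%; 7.848% of all genes). AURKB held CCAAT farther upstream, and MELK held neither set of letters in this window. A match of letters is a description of the sequence, and binding was not measured.

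Gene counts ran from 9663203 to 28029908 reads per library (median 13801732.5) in DMSO and from 13122415 to 22817803 (median 14516359.5) in PBKi, and each member had between 612 and 23850 reads in each library. One control library stood apart. In DMSO replicate 5, the shallowest, the deviations of 9895 genes from the group mean followed the GC content of their transcripts with r = 0.73, whereas r lay between -0.40 and 0.27 in the other 11 libraries. This bears on the members because their GC content runs from 37.0% in CDK1 and 37.2% in PBK to 55.6% in AURKB and 57.1% in PLK1, around a median of 47.1% over genes. Values without this library are given for PBK, CDK1 and PLK1, for ratios of PBK to other kinases and for the correlations between genes, and not beside every result. Among PBKi libraries, replicates 3 and 6 had the highest shares of reads outside annotated genes (9.30% and 8.83%, against 5.74% to 6.96% in DMSO), and results that change without them are also named. Markers of luminal prostate epithelium were present in every library, with summed levels of 4753 to 5608 CPM (normalised counts scaled to a fixed library size) in DMSO and 2615 to 3451 CPM in PBKi. Within that list 4 of 8 genes fell and 1 rose, beside 21.5% lower and 20.1% higher over all genes tested (adjusted p under 0.05, edgeR). KLK3 and KLK2 fell most (log2 fold changes of -1.39 and -1.48). Their means went from 2959 to 1131 CPM and from 462 to 166 CPM, and most of the drop in the sum came from KLK3. HOXB13 also fell (-0.60), FOLH1 rose (0.33), and KRT8, EPCAM and STEAP2 did not pass. The 7 immune, endothelial and fibroblast markers that could be matched summed to 22.6 to 28.4 CPM in DMSO and 21.0 to 26.3 CPM in PBKi, mostly from COL1A1, while the immune markers PTPRC and CD3E were at or near 0. Only 2 of the 7 passed the filter on low counts, and of these the endothelial marker VWF fell, from 5.26 ± 1.28 to 3.61 ± 0.596 CPM (SD, n = 6 each; log2 fold change -0.50, adjusted p = 0.0155, edgeR). The part of these marker changes in the results on the kinases was not tested.

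PBK lies on chromosome 8 (GRCh37, 27667141 to 27695599, minus strand). Its level was between 169.6 and 269.7 CPM in DMSO (median 217) and between 140.3 and 185 CPM in PBKi (median 168). The groups overlapped only through DMSO replicate 5, the lowest control, since the other 5 controls lay above every PBKi library at 195 CPM or more. PBK was 25.1% lower with PBKi (log2 fold change -0.42 ± 0.095 SE, n = 6 and 6, adjusted p = 0.00194 by the quasi-likelihood test of edgeR, corrected over all genes by the Benjamini-Hochberg method; two-sided exact permutation p = 0.00649). Without DMSO replicate 5 the log2 fold change was -0.47 (adjusted p = 0.00021), and with each library's GC trend removed it was -0.37 (adjusted p = 0.00121).

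**Figure D1:**
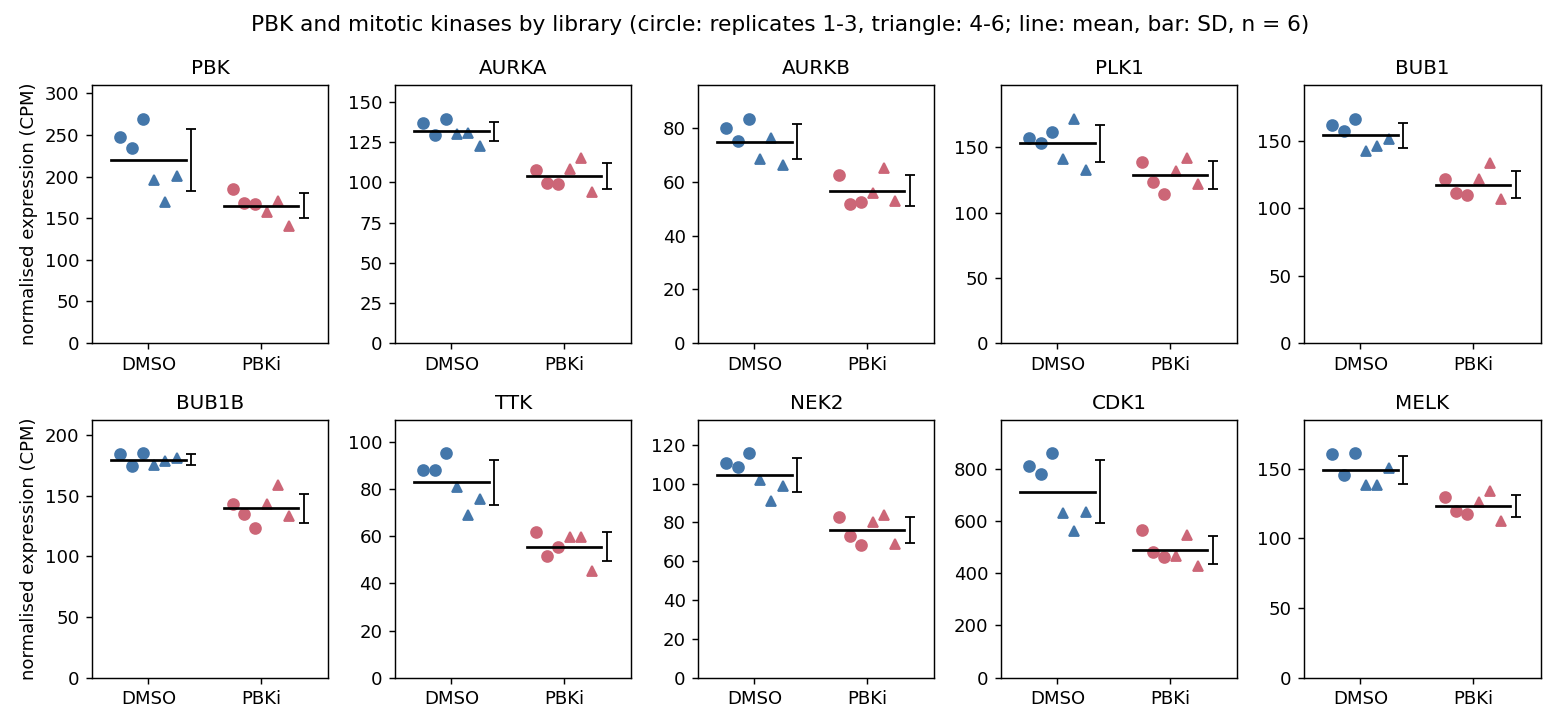
Level of each of the 10 members in CPM (vertical axes, each from 0) in the 6 DMSO and the 6 PBKi libraries, 1 point per library (circles for replicates 1 to 3, triangles for 4 to 6), with the mean and SD of each group. The groups are apart for 7 members and overlap for PBK, PLK1 and CDK1.

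Of the 10 members, 10 were lower and none higher at an adjusted p under 0.05. Over all genes tested by the same rule, 21.5% were lower and 20.1% higher. In 7 members every PBKi library lay below every DMSO library, an arrangement that 9.68% of all genes showed. The 7 were AURKA, AURKB, BUB1, BUB1B, TTK, NEK2 and MELK, and each of them had a two-sided exact permutation p = 0.00216, the smallest that 6 against 6 libraries can give.

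CDK1, the kinase that drives entry into mitosis (chromosome 10, 62538089 to 62554610, plus strand), was between 563 and 860.1 CPM in DMSO (median 709) and between 426 and 566 CPM in PBKi (median 473). Only the highest PBKi library and DMSO replicate 5 overlapped, at 566 and 563 CPM. CDK1 was 31.3% lower (log2 fold change -0.54 ± 0.098, adjusted p = 0.000289, edgeR), and -0.59 without DMSO replicate 5. The CDK1 promoter shown above holds CHR letters at both positions named.

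The Aurora kinases differ in place. AURKA works at centrosomes and spindle poles, and AURKB is the enzyme of the chromosomal passenger complex. AURKA (chromosome 20, 54944445 to 54967393, minus strand) ran from 123 to 139.8 CPM in DMSO (median 131) and from 93.9 to 115.5 CPM in PBKi (median 104). AURKB (chromosome 17, 8108051 to 8113918, minus strand) ran from 66.2 to 83.6 CPM in DMSO (median 75.9) and from 51.8 to 65.1 CPM in PBKi (median 54.4). In both genes all 6 PBKi libraries lay below all 6 controls, though for AURKB the gap between the groups was narrow. AURKA fell by 0.34 ± 0.055 on the log2 scale (adjusted p = 9.68e-05, edgeR) and AURKB by 0.41 ± 0.071 (adjusted p = 0.000209, edgeR).

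PLK1, which acts in centrosome maturation and spindle assembly (chromosome 16, 23688977 to 23701688, plus strand), showed the smallest change of the 10. Its level was between 132.8 and 172 CPM in DMSO (median 155) and between 114.6 and 142 CPM in PBKi (median 128). The groups overlapped, with 4 PBKi libraries below every control and 4 controls above every PBKi library. DMSO replicate 5, the lowest control for PBK, was the highest for PLK1. PLK1 was 15.9% lower (log2 fold change -0.25 ± 0.067, adjusted p = 0.00646, edgeR; exact permutation p = 0.0108), and -0.21 without DMSO replicate 5 (adjusted p = 0.0119). Without PBKi replicates 3 and 6 it was -0.19 and no longer passed (adjusted p = 0.0559).

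NEK2, a centrosomal kinase that helps to separate the centrosomes (chromosome 1, 211831999 to 211848972, minus strand), ran from 91.0 to 116 CPM in DMSO (median 105) and from 68.6 to 83.8 CPM in PBKi (median 76.5). The groups did not overlap, and NEK2 was 27.2% lower (log2 fold change -0.46 ± 0.068, adjusted p = 3.98e-05, edgeR).

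The kinases of the spindle checkpoint, BUB1, BUB1B and TTK, were apart between the groups in every library. TTK, also called MPS1, which starts checkpoint signalling at the kinetochore (chromosome 6, 80713604 to 80752244, plus strand), ran from 69.1 to 95.2 CPM in DMSO (median 84.4) and from 45.2 to 61.6 CPM in PBKi (median 57.6). Its fall of 33.1% was the largest among the members (log2 fold change -0.58 ± 0.083, adjusted p = 2.56e-05, edgeR). BUB1, which recruits other checkpoint proteins to kinetochores (chromosome 2, 111395105 to 111435640, minus strand), ran from 143 to 167 CPM in DMSO (median 154) and from 107 to 134 CPM in PBKi (median 117). BUB1B, which encodes BubR1, a part of the complex that inhibits the anaphase-promoting complex (chromosome 15, 40453224 to 40513324, plus strand), ran from 175 to 185 CPM in DMSO (median 179.9) and from 124 to 158 CPM in PBKi (median 139). BUB1B had the tightest controls of the 10. The log2 fold changes were -0.39 ± 0.061 for BUB1 (adjusted p = 5.75e-05, edgeR) and -0.37 ± 0.055 for BUB1B (adjusted p = 4.58e-05, edgeR).

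MELK, a kinase of the AMPK-related family that is abundant in dividing cells (chromosome 9, 36572859 to 36677680, plus strand), ran from 138 to 161 CPM in DMSO (median 148) and from 112 to 134 CPM in PBKi (median 123). The groups were apart but close, and MELK was 17.4% lower (log2 fold change -0.28 ± 0.058, adjusted p = 0.000965, edgeR). Pseudogenes of AURKA, AURKB and NEK2 in the files had few reads of their own, at most 59 for NEK2P4 summed over the 12 libraries, and reads that fit a member and its copy equally were not measured. The exons of PLK1 overlap those of ERN2 on the other strand, and those of BUB1B overlap PAK6 on the same strand, but ERN2 and PAK6 had 43 and 192 reads in all.

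**Figure D2:**
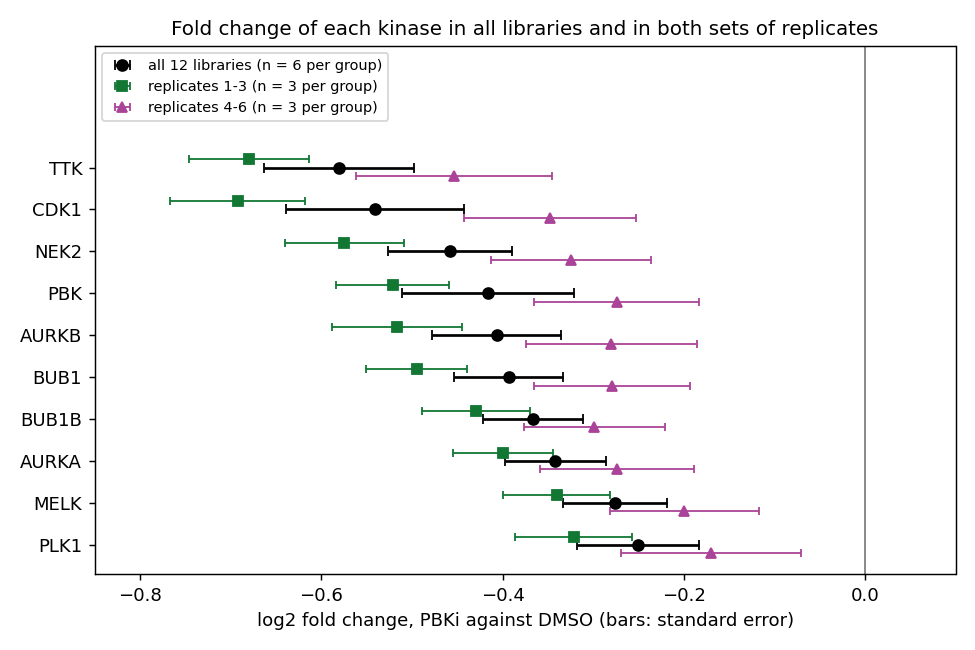
Log2 fold change (PBKi against DMSO) of each member, with SE, from all libraries and from replicates 1 to 3 and 4 to 6 alone. All 10 members lie below 0 in each of the fits, and each is farther from 0 in replicates 1 to 3.

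The size of the fall differed between replicates 1 to 3 and replicates 4 to 6, a division by number that the labels do not name as a batch. From replicates 1 to 3 alone all 10 members were lower at an adjusted p under 0.05 (22.0% of all genes were), with a median log2 fold change of -0.51. From replicates 4 to 6 alone 6 of the 10 were (8.32% of all genes), with a median of -0.28. PBK was -0.52 in the former and -0.27 in the latter (adjusted p = 0.0583, edgeR), CDK1 -0.69 and -0.35, and TTK -0.68 and -0.45. In DMSO the median deviation of the 10 members from the group mean (log2) was 0.092, 0.020 and 0.133 in replicates 1 to 3. In DMSO replicates 4 to 6 it was -0.107, -0.093 and -0.104. In PBKi it was 0.117, -0.057 and -0.090 in replicates 1 to 3, and 0.041, 0.148 and -0.135 in 4 to 6. All controls of replicates 4 to 6 were thus low, and they include DMSO replicate 5, the library that followed GC content. DMSO replicate 5 was the lowest control for PBK, CDK1, TTK, NEK2 and MELK and the highest for PLK1. The part of this library, or of the other controls, in the difference between the sets was not tested. Besides PBK, AURKB, PLK1 and MELK did not pass in replicates 4 to 6 (adjusted p = 0.0608, 0.272 and 0.121, edgeR). All 10 members were closer to 0 in replicates 4 to 6, but the difference between the sets passed for none of them once adjusted over all genes (lowest adjusted p = 0.927 in an edgeR interaction model). Unadjusted, the interaction p was under 0.05 for 4 members, PBK (0.0413), BUB1 (0.0439), NEK2 (0.0370) and CDK1 (0.0138).

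Per kilobase of exon, CDK1 and PBK were the most abundant of the 10 in both groups. The length used joins all annotated exons of a gene. For AURKB it is 2241 bases, against 1254 in the longest single transcript, and for PLK1 4760 against 4135. The order of the genes between PBK and TTK therefore depends on the length chosen. In DMSO the mean levels were 183 ± 30.5 CPM per kilobase (SD, n = 6) for CDK1 and 102 ± 17.3 for PBK, which placed PBK at percentile 97.5 of 14013 genes. MELK (48.3 ± 3.32) and AURKA (45.0 ± 2.06) came next and overlapped in range, followed by BUB1B (40.3 ± 0.980). NEK2 (33.7 ± 2.87), AURKB (33.5 ± 2.96) and PLK1 (32.2 ± 2.99) could not be ordered within their spread, and BUB1 (24.5 ± 1.47) and TTK (18.1 ± 2.08) were lowest. With PBKi the first 5 places and the last 2 were held by the same genes, while PLK1 (27.1), AURKB (25.3) and NEK2 (24.6) changed places within overlapping ranges. PBK then stood at 76.7 CPM per kilobase and percentile 96.5.

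The ratio of PBK to each other kinase within a library shows whether PBK fell more or less than that kinase, free of the library's scaling. The log2 ratio of PBK to CDK1 was -1.70 ± 0.03 in DMSO and -1.57 ± 0.07 in PBKi (SD, n = 6 each), a rise of 0.129 (two-sided exact permutation p = 0.00433, and 0.039 with Benjamini-Hochberg adjustment over the 9 ratios). PBK thus fell less than CDK1. The ratio to TTK was 0.175 higher with PBKi (exact permutation p = 0.0173), which did not pass once adjusted (0.0779). Both unadjusted p-values stayed under 0.05 on leaving out any library and on removing the GC trend. For the other 7 kinases the difference lay between -0.152 (PLK1) and 0.0536 (NEK2), with exact permutation p from 0.143 to 0.987. Without DMSO replicate 5 the ratio to PLK1 differed by -0.258 (unadjusted exact permutation p = 0.0108) and that to MELK by -0.176 (unadjusted exact permutation p = 0.039).

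**Figure D3:**
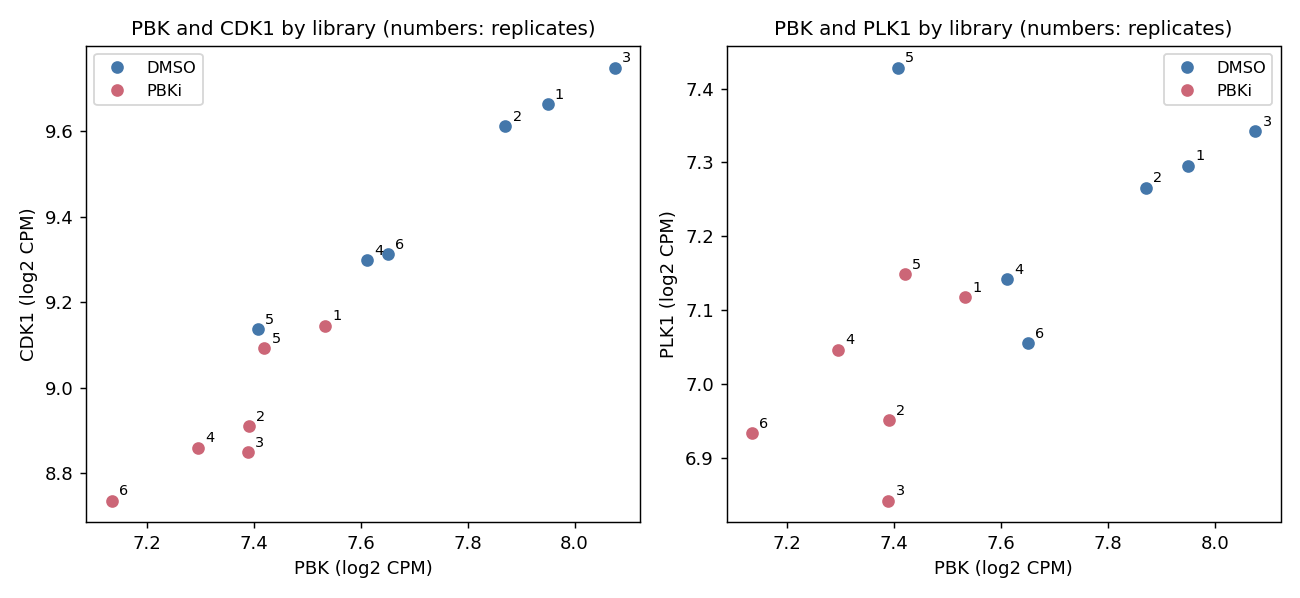
Level of PBK (horizontal axes, log2 CPM) against CDK1 and against PLK1 (vertical axes, log2 CPM), 1 point per library, coloured by group. CDK1 follows PBK from library to library, while DMSO replicate 5 stands apart in the plot against PLK1.

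The members also varied together among libraries of the same group. Taking each library's deviation from its group mean on the log2 scale over the 12 libraries, CDK1 followed PBK most closely (r = 0.96), then TTK (0.87), NEK2 (0.79), MELK (0.77), BUB1 (0.67), AURKB (0.56) and AURKA (0.54). BUB1B (0.26) and PLK1 (0.19) followed least. Among 10040 genes with a log2 CPM averaging 3 or more, CDK1 ranked 34 in closeness to PBK, TTK 485, NEK2 928 and MELK 1028. BUB1 ranked 1594, AURKB 2105, AURKA 2193, BUB1B 3335 and PLK1 3577. Many other genes thus followed PBK as closely as most of the members did. Leaving out DMSO replicate 5 brought r for PLK1 to 0.70 and left CDK1 at 0.94 and BUB1B at 0.30. Over all pairs of members the median r was 0.76 (0.81 without DMSO replicate 5), beside 0.01 over all pairs of genes. These libraries are of 1 cell line and differ in depth, and PBK and CDK1 share a low GC content. The members' median deviation was positive in DMSO replicates 1 to 3 and negative in DMSO replicates 4 to 6. This division of the controls enters the correlations, and its part in them was not tested. All 10 members lay above the group mean in DMSO replicates 1 and 3 and in PBKi replicates 1 and 5, and all 10 lay below it in DMSO replicate 4 and PBKi replicate 6.

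Among the 10040 genes whose log2 CPM averaged 3 or more, those closest to PBK by this measure were NDFIP2 (r = 0.99), RAD51AP1 (0.99), DCK (0.98), RABGGTB (0.98) and CBX3 (0.98). All 5 were lower with PBKi, by 0.43 for NDFIP2, 0.53 for RAD51AP1, 0.43 for DCK, 0.28 for RABGGTB and 0.40 for CBX3 on the log2 scale. Their transcripts had GC contents of 35.0% to 39.5%, near that of PBK. NDFIP2 and RAD51AP1 stayed among the closest 5 without DMSO replicate 5, and the other three places went to BUB3, RPA2 and GEMIN2.

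**Figure D4:**
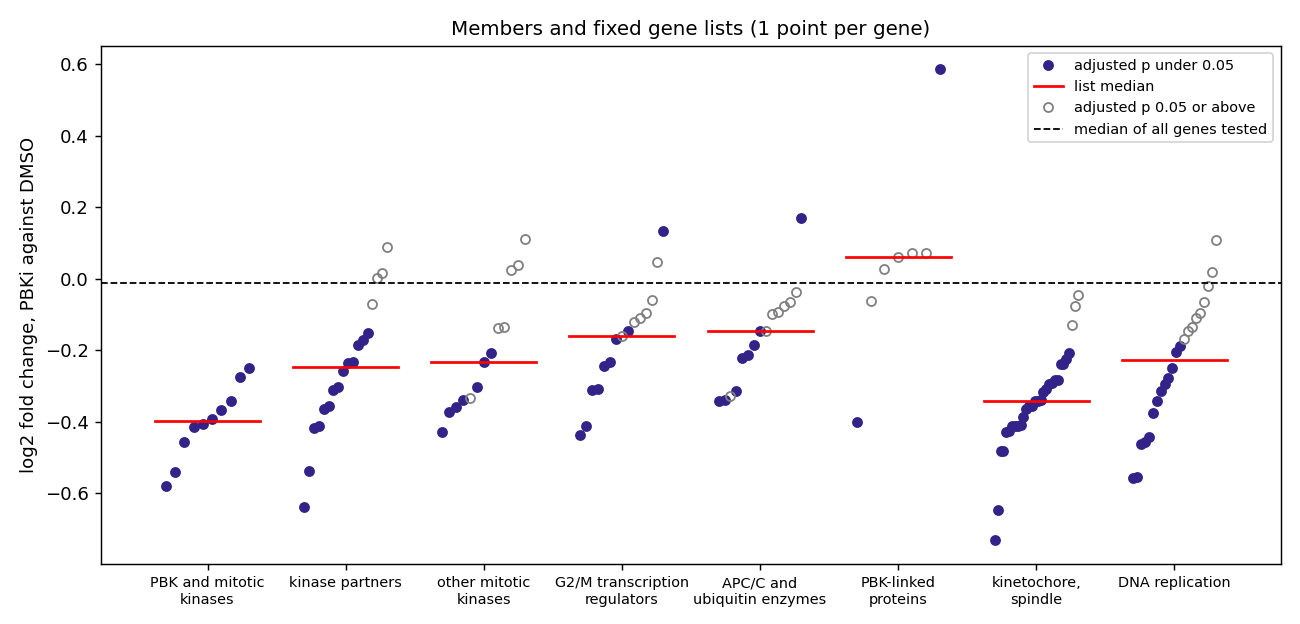
Log2 fold change (PBKi against DMSO) of each gene in the members and in 7 lists of related genes, 1 point per gene, with the median of each list marked. Medians lie below 0 in every list except that of proteins linked to PBK.

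Genes that work with the members were examined in fixed lists. Beside the counts of each list stand the shares over all genes tested, 21.5% lower and 20.1% higher at the same threshold. Of 18 activators, cofactors and binding partners, 14 fell and none rose, with a median log2 fold change of -0.25. The largest falls were those of CKS1B, a small subunit of CDK complexes (-0.64), MAD2L1, the checkpoint protein MAD2 (-0.54), CCNB2, a B-type cyclin of CDK1 (-0.42), and BIRC5, or survivin, a partner of AURKB (-0.41). The 4 genes of the list that did not pass were AJUBA (-0.07), MAD1L1 (0.0005), CDC25A (0.01) and CDC25B (0.09). CDC25A and CDC25B are phosphatases that activate CDKs, and CDC25C of the same family fell (-0.24, adjusted p = 0.00364, edgeR). From replicates 4 to 6 alone 4 of the 18 passed as lower (8.32% of all genes did).

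Among other kinases of mitosis and mitotic entry, 13 of 14 were expressed enough to test, and 7 fell and none rose (median -0.23). They included VRK1, a chromatin kinase (-0.43), CHEK1, the DNA damage checkpoint kinase (-0.37), CIT, a kinase of cytokinesis (-0.36), and PLK4, which controls centriole duplication (-0.34). PLK2 (0.11), PLK3 (0.04) and NEK9 (0.02) did not pass.

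Of the 7 lists shown, that of kinetochore, spindle and chromosome segregation genes had the median nearest to the members' median. Of its 30 genes 27 fell and none rose (median -0.34), led by the kinetochore proteins CENPK (-0.73) and NUF2 (-0.65), followed by PTTG1, or securin (-0.48), and ECT2, a factor of cytokinesis (-0.48). MKI67 (-0.05), CENPF (-0.13) and SKA3 (-0.08) did not pass. CHR letters stood in the promoters of 22 of its 29 matched genes (75.86%). In the DNA replication list 13 of 22 genes fell and none rose (median -0.23), and RFC3 (-0.56), CDC45 (-0.56), TYMS (-0.46) and PCNA (-0.46) fell most. Of 21 replication promoters 1 (4.762%) held CHR letters. CCAAT stood in 15 of those 21 (71.43%) and in 20 of the 29 kinetochore promoters (68.97%), shares close to that of the members.

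Transcription regulators of G2/M genes were mixed. Of 15 tested, 8 fell and 1 rose (median -0.16), and LIN9, a core subunit of the MuvB complex (-0.44), NFYB, a subunit of the factor that binds CCAAT (-0.41), E2F5 (-0.31) and TFDP1 (-0.31) fell most. NFYC rose by 0.13. FOXM1, an activator of G2/M genes, was at 0.05 (adjusted p = 0.559, edgeR). Of 15 genes for the anaphase-promoting complex and its helpers, 7 fell and 1 rose (median -0.15). FBXO5, an inhibitor of the complex (-0.34), its subunits ANAPC11 (-0.34) and ANAPC5 (-0.22), and CDC20, its mitotic coactivator (-0.32), fell most, and the subunit gene CDC16 rose by 0.17. The rise of NFYC was lost on leaving out any single library among DMSO replicates 1, 2 and 3 and PBKi replicates 3, 4, 5 and 6. That of CDC16 was lost on leaving out some single libraries, as were the calls of some regulators that fell.

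Of 7 proteins known to bind PBK or to work with it, 5 did not pass (median of the list 0.06). MAPK8, or JNK1, fell by 0.40. PRDX1, a peroxiredoxin that removes peroxides, rose from 798 ± 44.5 to 1198 ± 52.3 CPM (SD, n = 6 each; log2 fold change 0.59, adjusted p = 1.09e-07, edgeR).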

How the data were processed

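RNA from 12 C4-2 libraries was sequenced, and the authors deposited raw read counts per gene, in 47 tables of 1 sequencing lane each (3 lanes for DMSO replicate 5 and 4 for the others). The submitters' notes name TopHat2 2.0.4, HTSeq 0.5.3p9, DESeq 1.10.1 and GRCh37. The labels mention flow sorted cells, with no gate. Counts of the lanes were summed per library, after a check that they varied as counting error alone would (chi-square per degree of freedom 0.9896 to 1.019). Levels in CPM are counts scaled by TMM library sizes. Rows that name no gene were left out of library sizes, among them reads outside genes (5.74% to 9.30%).

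Genes reaching 10 counts in 6 or more libraries were tested with edgeR 4.0.16 in R 4.3.3 (TMM scaling, quasi-likelihood test, PBKi against DMSO, Benjamini-Hochberg adjustment over 14505 genes, threshold 0.05). Single values were tested by exact permutation over 924 splits of log2 CPM with a prior count of 2. Data were simulated for this comparison with 200 changed genes among 14505. There 71% of changes of log2 0.5 and 90% of changes of log2 1 were recovered, and 3.012% of calls were unchanged genes. The simulation held no replicate sets, no GC trend and far fewer changed genes than were called here. These rates may therefore not carry over to the real libraries. The members and lists were chosen with earlier results of these data known. Named genes were all members, up to 4 genes of each list with the largest changes past the threshold, and the 5 genes closest to PBK. Members of lists named as not passing, and CDC25C, were chosen after their values were seen. Symbols were found for 47098 of 54127 identifiers. Alternatives were RLE scaling, DESeq2 1.42.0, other count filters, a replicate block, subsets of lanes and libraries, and, added after seeing the data, an interaction term and an offset for transcript GC content (spline with 5 degrees of freedom).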

Additional observations from a re-analysis of the deposited data

How the results depend on the processing

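All 10 members stayed lower and past the threshold under RLE scaling, DESeq2, no filter, a minimum of 50 counts, the replicate block, a term for replicates 1 to 3, lanes 6 to 8, the GC offset and the loss of any single library. Leaving out libraries in turn, the log2 fold changes ranged from -0.47 to -0.34 for PBK and from -0.28 to -0.21 for PLK1. Without PBKi replicates 3 and 6, PLK1 was -0.19 and did not pass. From replicates 1 to 3 the members' median was -0.51. From replicates 4 to 6 alone, PBK (-0.27), AURKB (-0.28), PLK1 (-0.17) and MELK (-0.20) did not pass, 6 members were called, the members' median was -0.28, and 1207 genes were called lower and 1273 higher. Genes called lower there were 4 of 18 partners, 3 of 13 other kinases and 3 of 15 regulators. So were 1 of 15 genes of the anaphase-promoting complex and 7 of 22 replication genes, beside 8.32% of all genes. The kinetochore and spindle list kept 18 of 30 genes called lower there. Regulators and that complex had 0 called higher there, against 1 each (NFYC and CDC16) from all libraries. Leaving out single libraries, regulators called lower ranged from 5 (without DMSO replicate 1) to 8 and called higher from 0 to 2, and genes of the complex called higher from 0 to 1. The cause was not tested.

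The ratio of PBK to a kinase changed sign where it was near 0. Leaving out libraries in turn, the difference ranged from -0.0750 to 0.0330 for AURKB, from -0.0622 to 0.0336 for BUB1 and from -0.100 to 0.0237 for BUB1B, from -0.258 to -0.107 for PLK1 and from -0.176 to -0.0866 for MELK. With the GC offset it was 0.0344 for BUB1 and 0.0149 for BUB1B.

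The labels give both groups the replicate numbers 1 to 6 without saying that a number marks a shared batch. Deviations of same-numbered libraries correlated at 0.0887 to 0.299 (mean 0.198), 5 of 6 above 0.1, and 4 of 6 libraries in each group correlated best with their own number. Libraries of other numbers within replicates 1 to 3, and within 4 to 6, also correlated positively, at most at 0.235 (DMSO replicate 3 with PBKi replicate 1). Between these sets nearly all correlations were negative, down to -0.279 (DMSO replicate 6 with PBKi replicate 1). Libraries thus tended to deviate together by set as well as by number. The labels do not explain this hint from the data, and the pairing was not taken as given. With the replicate block PBK was -0.40, 3803 genes were called lower and 3485 higher, and the ratio of PBK to NEK2 (0.0536) had an unadjusted exact sign-flip p of 0.0313, the smallest that 6 pairs can give, as had those to CDK1 and TTK. Adjusted over the 9 ratios it was 0.0938 for these 3, so no ratio passed in this paired test, that to CDK1 included. These 3 already stood at the smallest p that 6 pairs can give. Whether they passed thus depended on how many of the other ratios reached it too, and those had sign-flip p of 0.0625 or more. The paired test therefore cannot decide on the ratio to CDK1.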
